A study of Homo sapiens with 23 samples.

Results

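The genes described here encode the cell's protein-folding and stress machinery: heat-shock proteins, the cytosolic chaperonin, mitochondrial chaperones, the chaperones and oxidoreductases of the endoplasmic reticulum (ER), and stress sensors, not all of them of the ER. They were chosen by symbol alone, as every listed gene named for a heat-shock protein (HSP, without the matrix proteoglycan HSPG2), a J-domain protein (DNAJ), a subunit of the chaperonin CCT (CCT2 to CCT8 and TCP1), a protein disulphide isomerase (PDIA or P4HB), CALR, CANX, HYOU1, SDF2L1, HERPUD, XBP1, DDIT3, EIF2AK, ERN1, SEL1L or ERO1, and 71 of the 9497 genes in the expression tables met that rule. By where the protein works, 34 were cytosolic, 6 mitochondrial and 20 in the ER. Another 7 were grouped by role, as stress sensors of any compartment or parts of ER-associated degradation (ERAD). The last 4 were left unassigned (DNAJC4, SEL1L3, DNAJC27-AS1 and HERPUD2-AS1). HSPA1A, CCT6B, SDF2L1, DDIT3 and ERN1, which the rule would also take, were not among the genes listed and were not analysed here.

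Thalamus organoids (ThOs) are spheres of human pluripotent stem cells steered towards the thalamus, the relay nucleus of the forebrain. All ThOs came from the H1 embryonic stem cell line. WT was unedited H1, KO was H1 with c-JUN (gene JUN, a subunit of the transcription factor AP-1) targeted by CRISPR/Cas9, and OE was the KO line carrying a tetracycline-inducible c-JUN, so the OE cells keep the knockout allele. The inducer is doxycycline, and whether WT and KO also received it is not given in the sources used here. The RNA-seq part held 12 libraries in 6 groups of 2, one group for each genotype at day 25 and at day 30, and each library was RNA from 3 pooled ThOs. The study made 2 knockout lines, and the labels do not say which line each KO library came from, nor whether the libraries of a group came from separate inductions, so p-values measure only the spread between these libraries. In such bulk samples fewer cells of a type and less RNA per cell cannot be told apart.

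The deposited values were whole-number normalized expression scores between 11 and 9910, with a median of 106 in every library, and their depth is unknown. JUN (ENSG00000177606) did not follow the KO or OE label. Its values at day 25 were 139 and 153 in WT, 353 and 196 in KO, and 224 and 212 in OE, and at day 30 they were 128 and 162 in WT, 222 and 248 in KO, and 362 and 202 in OE. All 4 libraries labelled KO thus held more JUN transcript than all 4 WT libraries (log2 difference from WT over both days 0.77, SE 0.23, limma adjusted p = 0.197). JUN in the libraries labelled OE (202 to 362) overlapped that in KO (196 to 353) and was not higher. By RT-qPCR the paper found c-JUN mRNA absent from its KO lines during neural progenitor and cerebral organoid induction. By western blot it found no c-JUN protein in KO lines and induced protein in OE. It gives neither assay for ThOs. For ThOs of day 25 it reports, from ATAC-seq, a measure of open chromatin, that the c-JUN gene was less open in KO. In WT and in OE the gene was highly open. It also shows c-JUN protein by immunostaining in H1 ThOs of day 30. The JUN values here do not match what the paper reports for KO and OE, and the reason was not tested. A gene edited by CRISPR can still be transcribed, and a total per gene cannot show the edit. The genotype is named below as the labels give it. Replicates of the libraries labelled KO were far apart. Spearman's rho across all genes was 0.821 between the KO libraries of day 25 and 0.769 between those of day 30, against 0.936 to 0.959 in the WT and OE pairs. In KO replicate 2 of day 30, 45.2% of all genes and 49.3% of the 71 members had their highest or lowest value of the 12 libraries. Neuronal markers were present (10 of 10 listed, summed value 6809 to 10947), whereas of 13 thalamic markers 5 were listed, TCF7L2 among them, and the defining GBX2 and OLIG3 were not.

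As background, most new proteins need help to fold. In the cytosol HSP70 proteins, steered by J-domain partners, hold unfolded chains, HSP90 finishes selected clients such as kinases, and the ring-shaped CCT chaperonin folds actin and tubulin, which growing neurons need in bulk. Mitochondria use their own HSP70 (HSPA9) and the HSP60-HSP10 chamber (HSPD1 and HSPE1). In the ER, BiP (HSPA5), GRP94 (HSP90B1) and the lectins calreticulin and calnexin fold secreted and membrane proteins, and disulphide isomerases recharged by ERO1A form their disulphide bonds. When folding fails in the cytosol, the factor HSF1 switches on heat-shock genes through heat-shock elements, and when it fails in the ER, the sensors PERK (EIF2AK3), IRE1 and ATF6 start the unfolded protein response, in which ATF6 and XBP1 act on ER stress elements. AP-1, of which c-JUN is a part, responds to many of the same insults.

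The promoters of the members carry these elements in a pattern that follows the compartment. RefSeq (GRCh38.p14) gave promoter windows, 250 bases before to 50 after a transcription start, for 67 of the 71 members (93 windows, as some genes have several starts). The ER stress element, CCAAT and CCACG with 9 bases between them, searched like the others on both strands, lay in 28.0% of the 25 windows of ER genes (HSPA5, HSP90B1, CALR, PDIA6 and 3 overlapping starts of CANX) and in the window of XBP1, in 0 of 48 cytosolic windows, and in 0.0769% of all 35116 promoter windows. Its short form, the ER stress element II (ATTGG and CCACG with 1 base between them), lay in the windows of HYOU1 and HERPUD1 and in 0.0541% of all windows. Because these elements were first defined on ER chaperone promoters, their presence here is a description and not a finding. The heat-shock element (GAA, TTC and GAA with 2 bases between neighbours) lay in 10.4% of the 48 cytosolic windows (HSPA8, HSP90AA1, HSP90AB1, DNAJA1 and DNAJB6), in 1 of 7 mitochondrial windows (HSPD1), in 0 of 25 ER windows and in 0.49% of all windows. The AP-1 site TGACTCA lay in 0 of the 93 member windows and in 4.95% of all windows. The related cAMP response element TGACGTCA lay in 4 member windows (4.3%) and in 1.85% of all. These were more than 1 start of DNAJC27, the overlapping gene DNAJC27-AS1, and HSP90AB1. Windows of the overlapping genes can hold the same element, so it may be counted repeatedly. An absent match says only that these letters are not in the window. The 250 bases upstream of the start are printed for 5 genes with ER elements whose values are given below and for HSPA8 as the cytosolic counterpart, 5′ to 3′ on the gene's strand, with capitals on the fixed letters of each match, read on either strand.
HSPA5 (chr9:125241344-125241593, minus strand, 1 ER stress element): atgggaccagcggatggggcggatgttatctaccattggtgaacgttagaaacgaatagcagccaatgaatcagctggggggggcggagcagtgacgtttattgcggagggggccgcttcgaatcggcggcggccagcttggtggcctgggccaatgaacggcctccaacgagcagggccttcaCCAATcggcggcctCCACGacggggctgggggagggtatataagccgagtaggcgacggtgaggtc
HSP90B1 (chr12:103930160-103930409, plus strand, 2 ER stress elements, the second on the other strand): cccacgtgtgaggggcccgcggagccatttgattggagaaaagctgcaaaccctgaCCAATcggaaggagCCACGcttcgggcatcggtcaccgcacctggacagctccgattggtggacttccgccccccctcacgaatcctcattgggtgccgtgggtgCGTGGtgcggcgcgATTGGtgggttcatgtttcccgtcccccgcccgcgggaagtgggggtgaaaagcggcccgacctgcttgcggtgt
CALR (chr19:12938359-12938608, plus strand, 1 ER stress element on the other strand): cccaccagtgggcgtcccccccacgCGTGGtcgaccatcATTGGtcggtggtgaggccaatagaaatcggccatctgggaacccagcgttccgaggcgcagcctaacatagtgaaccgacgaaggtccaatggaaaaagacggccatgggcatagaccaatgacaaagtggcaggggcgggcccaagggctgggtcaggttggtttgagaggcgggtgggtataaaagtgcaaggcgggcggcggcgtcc
XBP1 (chr22:28800570-28800819, minus strand, 1 ER stress element): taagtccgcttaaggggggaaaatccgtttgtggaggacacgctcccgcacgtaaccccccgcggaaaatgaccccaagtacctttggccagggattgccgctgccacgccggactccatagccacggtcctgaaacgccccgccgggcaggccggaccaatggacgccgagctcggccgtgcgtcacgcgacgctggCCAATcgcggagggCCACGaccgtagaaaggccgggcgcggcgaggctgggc
HYOU1 (chr11:119057206-119057455, minus strand, 2 ER stress elements II on the other strand, the first overlapping an XBP1 site, TGACGTGG): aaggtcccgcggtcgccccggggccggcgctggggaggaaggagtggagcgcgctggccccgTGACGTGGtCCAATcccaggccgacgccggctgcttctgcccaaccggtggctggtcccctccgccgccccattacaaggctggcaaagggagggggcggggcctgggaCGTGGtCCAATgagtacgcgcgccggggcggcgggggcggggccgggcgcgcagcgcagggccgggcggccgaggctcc
HSPA8 (chr11:123062137-123062386, minus strand, 2 heat-shock elements, the second on the other strand): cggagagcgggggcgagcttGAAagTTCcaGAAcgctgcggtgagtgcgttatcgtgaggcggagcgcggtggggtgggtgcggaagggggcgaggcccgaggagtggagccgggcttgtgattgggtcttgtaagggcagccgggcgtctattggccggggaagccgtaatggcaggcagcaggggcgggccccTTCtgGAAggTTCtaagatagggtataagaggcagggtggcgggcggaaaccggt

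The members differed widely in value and in how steadily they were expressed. HSP90AA1, the inducible cytosolic HSP90, took only the steps 2674 and about 3456 over the 12 libraries, HSPA8, the constitutive HSP70, lay between 2094 and 2674, and CALR between 1411 and 2092. At such high values the deposited scores sit on shared steps, so differences smaller than a step could not be seen. At the other end DNAJC27, a small GTPase with a J domain, lay between 17 and 36, and the PERK gene EIF2AK3 between 14 and 47. The 8 listed CCT subunits moved little. The ratio of the highest to the lowest of the 12 values had a median of 1.73 over these subunits, from 1.62 for CCT3 to 2.37 for CCT2, beside 2.48 over all genes, 2.07 over the cytosolic members, 2.18 over the ER members and 2.98 over the 6 mitochondrial ones. Part of that steadiness goes with level: the 696 genes of the table whose median value lay in the range of the CCT subunits (310 to 524) had a median ratio of 1.95, and 31.5% of them were steadier than the median subunit. HERPUD1, an ER membrane protein of ERAD, ranged 5.08-fold, from 25 to 127, and both extremes came from the KO libraries of day 30.

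**Figure D1:**
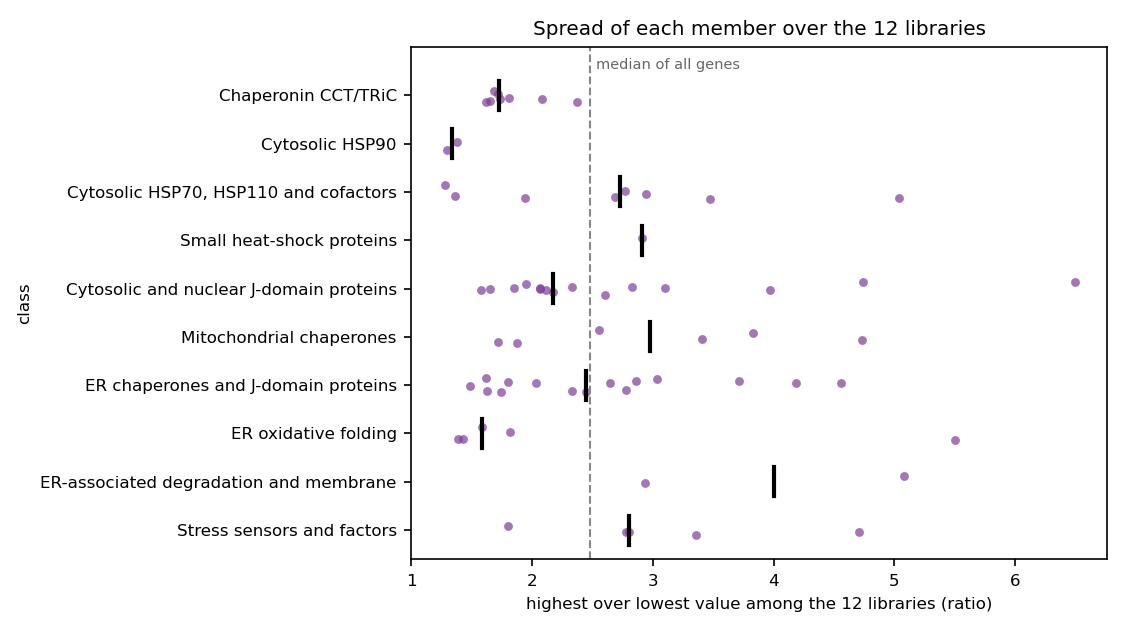
Ratio of the highest to the lowest of the 12 library values for each member (horizontal axis, 1 point per gene), by class, with the class median as a black bar and the median of all 9497 genes (2.48) as a dashed line. The CCT subunits sit between 1.62 and 2.37, all left of the dashed line, and the ER-associated degradation genes HERPUD1 and SEL1L sit to its right.

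Knockout against wild type asks which genes change when c-JUN is targeted. At day 25, 0 of the 71 members were called, that is, passed an adjusted p of 0.05 (limma, Benjamini-Hochberg over all genes) with a 2-fold change, beside 0.0105% of all genes. At an unadjusted p under 0.05, 8 members (11.3%) passed, beside 13.4% of all genes. Of these, 5 were lower in KO (ERO1A, DNAJB11, HYOU1 and HSPA13 of the ER, and EIF2AK2), beside 7.39% of all genes, and 3 were higher (DNAJC6, DNAJB6 and PDIA3), beside 6.03%.

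ERO1A, the oxidase that recharges disulphide isomerases (ENSG00000197930, chromosome 14, 52639915 to 52695900, as for all genes on GRCh38), had values of 96 and 78 in WT, 18 and 34 in KO and 58 and 68 in OE at day 25. Both KO values lay below all 10 others of the series, and the log2 difference of KO from WT was -1.76 (SE 0.39, adjusted p = 0.172). At day 30 the KO values, 99 and 48, surrounded the WT values of 84 and 80, while OE had 46 and 52. Averaged over the days, the log2 difference of KO from WT was -1.004 (SE 0.28, adjusted p = 0.193), the widest of all members in that comparison. Without KO replicate 1 of day 30 it was -1.26 and passed (adjusted p = 0.0143). ERO1A is known to be induced by hypoxia, and 5 of 9 listed hypoxia markers (VEGFA, BNIP3, PDK1, SLC2A1 and NDRG1) were summed beside it: their sum was 369 and 379 in KO at day 25, 772 and 900 in WT and 1040 and 1476 in OE, and at day 30 it was 1716 in KO replicate 1 but 458 in KO replicate 2. Both were thus lowest in KO at day 25 and lower in replicate 2 than in replicate 1 of KO at day 30. Elsewhere they parted. The sum was higher in WT at day 30 (1610 and 1722) than at day 25 while ERO1A was not. In OE at day 30 the sum was 1182 and 1434 with ERO1A at 46 and 52. The part of hypoxia genes in the ERO1A values was not tested.

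HYOU1, the ER's large HSP70 relative that exchanges BiP's nucleotide (chromosome 11, 119044188 to 119057227), was at 608 and 547 in WT, 408 and 326 in KO and 442 and 466 in OE at day 25. At day 30 it was at 438 and 406 in WT, 406 and 230 in KO and 385 and 322 in OE. The KO values lay below WT without overlap at day 25 and touched them at day 30, and the log2 difference over both days was -0.56 (SE 0.18, adjusted p = 0.213). DNAJB11, another BiP partner, was at 64 and 38 in WT and 16 and 30 in KO at day 25, but at 58 and 38 in WT and 67 and 61 in KO at day 30. Its KO difference thus had opposite signs on the 2 days (log2 difference -1.13 on day 25, 0.44 on day 30), and the difference between the days was 1.57 (SE 0.55, adjusted p = 0.802). CANX, calnexin, was at 1878 and 1408 in WT and 1412 and 1408 in KO at day 25, and at 1738 and 1602 in WT and 1212 and 1216 in KO at day 30, a log2 difference over both days of -0.33 (SE 0.11, adjusted p = 0.22).

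At day 30, 0 of 71 members were called between KO and WT, beside 0.0% of all genes, and 6 members (8.45%) had an unadjusted p under 0.05, beside 7.36% of all genes. XBP1, DNAJC3 and HSPA1B were higher, beside 3.43% of all genes, and DNAJB5, DNAJB6 and CANX were lower, beside 3.93%. DNAJB6, a J-domain protein that holds aggregating chains, was above WT at day 25 (300 and 234 in WT, 370 and 353 in KO) and below it at day 30 (322 and 336 in WT, 253 and 224 in KO), and the difference between the days was -0.91 on the log2 scale (SE 0.28, adjusted p = 0.802). Of the 71 members 0 had a KO effect that passed as different between the days, beside 0.0% of all genes, and 5 had an unadjusted p under 0.05, 7.04% against 5.63% of all genes. With both days averaged, 0 of 71 were called beside 0.0211% of all genes, and 10 (14.1%) passed unadjusted beside 15.2%. The members' shares stood close to those of all genes in each of these comparisons.

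Some cytosolic heat-shock genes, chosen here for their values, were highest in KO replicate 2 of their day. The labels do not say that replicate 2 of day 25 and of day 30 share an origin. The replicate differences of these KO pairs correlated by 0.056 over all genes. HSPA1B, the stress-inducible HSP70 (chromosome 6, 31827738 to 31830254), was at 232 and 325 in WT, 168 and 415 in KO and 246 and 408 in OE at day 25, and at 274 and 220, 435 and 847, and 307 and 362 at day 30. The log2 difference of KO from WT was -0.06 (SE 0.43, adjusted p = 0.972) at day 25 and 1.30 (SE 0.43, adjusted p = 0.643) at day 30. HSPA1A, its near-identical neighbour, was not listed, so how reads shared by both were assigned is not known. HSPH1, the HSP110 that resets HSP70, was at 368 and 806 in KO at day 25 and 467 and 920 at day 30, while the 8 WT and OE values lay between 313 and 588. DNAJA1, an HSP70 partner, followed with 476 and 722, then 600 and 823, and WT and OE between 398 and 619. In HSPA1B, HSPH1 and DNAJA1 KO replicate 2 was the highest library of its day. Of the 34 cytosolic members, 7 had their highest of the 12 values in KO replicate 2 of day 25, beside 1313 of 9497 genes. In KO replicate 2 of day 30 it was 9, beside 2207. Their lowest value stood there in 2 and 6 members, beside 1381 and 2082 genes. In either direction, 14.7% of the cytosolic members were more than 2-fold apart between the KO replicates of day 25, beside 17.4% of all genes. At day 30 it was 5.88%, beside 21.5%. HSP90AA1 was at 3452 and 3454 in KO at day 25, and DNAJB1, a classical heat-shock J-domain protein, was at 187 and 341 in KO at day 25 and 204 and 165 at day 30. HSPBP1, which exchanges the nucleotide of HSP70, had the widest positive difference of all members over both days (0.67, SE 0.27, adjusted p = 0.275). It was at 106 and 212 in KO at day 25 and 117 and 144 at day 30 beside 71 to 109 in WT. HSPB1, the small heat-shock protein, ranged from 138 to 402 with overlapping genotypes and a log2 difference of KO from WT of 0.00 (SE 0.28, adjusted p = 0.996). Over all 34 cytosolic members the median log2 difference of KO from WT was 0.08, with 23 above zero, beside -0.02 over all genes. With each library left out in turn that median ran from 0.025 to 0.177.

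Some members were low in KO replicate 2 of day 30 alone. EIF2AK4 (GCN2, the sensor of amino acid shortage) was at 34 there and between 110 and 160 in the other 11 libraries. DNAJB5 was at 38 there and between 93 and 180 elsewhere, DNAJA2 at 82 against 130 to 254, and HERPUD1 at 25 against 54 to 127. In this pair 13 members (18.3%) were more than 2-fold apart between the replicates, beside 21.5% of all genes, and in the pair of day 25 it was 10 members (14.1%) beside 17.4%. In the WT and OE pairs it was 0 to 3 members. Without KO replicate 1 of day 30, which leaves replicate 2 alone to stand for that group and is assumed to vary like the others, 6 members (8.45%) were called at day 30 (EIF2AK4, DNAJB9, DNAJA2, DNAJB5 and HERPUD1 lower, HSPA1B higher), beside 11.4% of all genes in that fit. Without KO replicate 2 of both days (a choice made once the values were known), 4 (5.63%) were called at day 25 (ERO1A, DNAJB11, EIF2AK2 and DNAJB2, all lower), beside 4.44% of all genes, with ERO1A at -2.20 on the log2 scale (adjusted p = 0.00719). The calls depended on which KO libraries were used, for all genes as for the members.

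**Figure D2:**
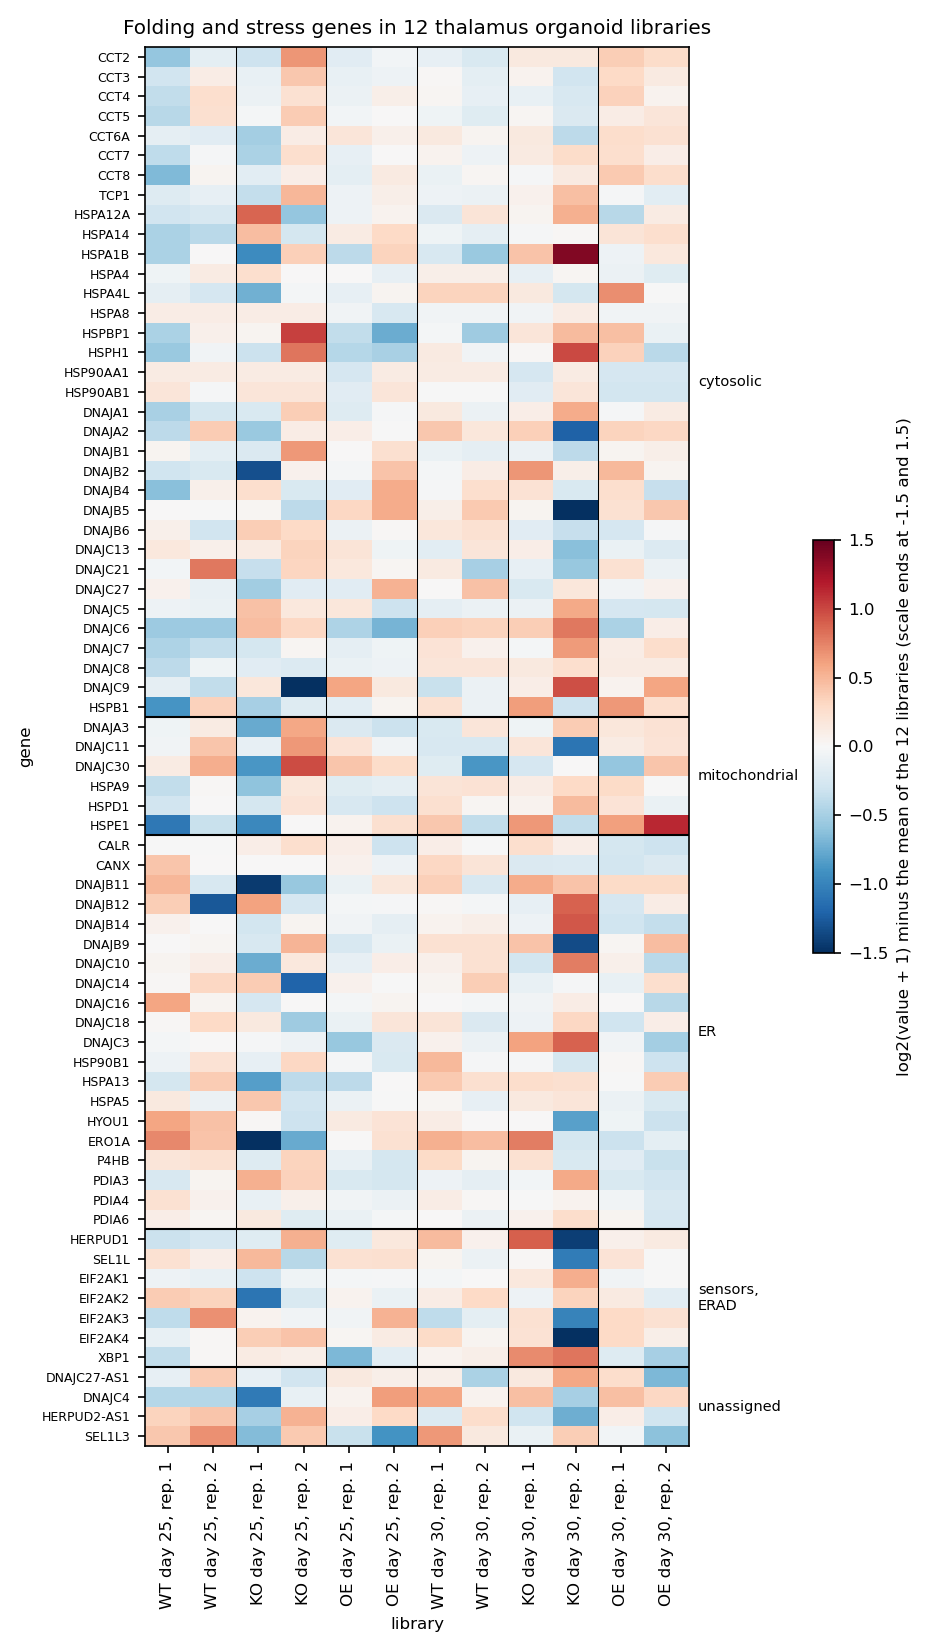
Heat map of the 71 members (rows, by compartment) in the 12 libraries (columns, 2 for each genotype and day), coloured by log2(value + 1) minus the member's mean over the libraries, from -1.5 (blue) to 1.5 (red). The strongest colours stand in the KO columns, above all KO replicate 2 of day 30, where 49.3% of members have their highest or lowest value. The CCT rows are paler, with medians from -0.37 in WT replicate 1 of day 25 to 0.32 in KO replicate 2 of day 25.

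By its labels, OE against KO addresses what c-JUN returned to KO cells changes, but JUN itself was not higher in OE, as given above. At day 25, 0 of 71 members were called beside 0.274% of all genes, and 6 (8.45%) had an unadjusted p under 0.05, beside 17.8%. At day 30, 0 of 71 were called beside 0.0842%, and 7 (9.86%) passed unadjusted beside 10.9%. Without KO replicate 1 of day 30, 10 members were called at day 30, XBP1 (-1.15, adjusted p = 0.0221), DNAJC3 (-1.17, adjusted p = 0.0299) and DNAJB14 lower and 7 higher. These were 14.1% of members, beside 15.2% of all genes in that fit. Averaged over the days, 0 of 71 passed with the 2-fold threshold, beside 2.22% of all genes, and 9 (12.7%) had an unadjusted p under 0.05, beside 22.2% of all genes. Without the fold threshold 2 members passed the adjusted p, XBP1 and DNAJC6, 2.82% of members beside 3.3% of all genes. In 5 members (7.04%) all 4 OE values lay below all 4 KO values, beside 4.51% of all genes: XBP1, DNAJC6, PDIA3, CALR and HSPA8. The widest positive differences were those of DNAJB5 (0.87, SE 0.31, adjusted p = 0.137), HSPE1 and DNAJC4 (0.67, SE 0.29, adjusted p = 0.211). DNAJB5 was at 1.30 and called (adjusted p = 0.00186) without KO replicate 1 of day 30. DNAJC4 was at 28 and 55 in KO and 62 and 93 in OE at day 25 but at 82 and 42, and 82 and 74 at day 30. The comparison shares its KO libraries with the one against WT, so the values below are given side by side and not as separate evidence.

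XBP1, the transcription factor of the unfolded protein response (ENSG00000100219, chromosome 22, 28794555 to 28800597), was at 152 and 198 in WT, 214 and 208 in KO and 123 and 176 in OE at day 25. At day 30 it was at 203 and 209 in WT, 322 and 342 in KO and 172 and 138 in OE. All 4 KO values lay above all 4 OE values, and above WT within each day, most clearly at day 30. The log2 difference of OE from KO over both days was -0.81 (SE 0.17, adjusted p = 0.0336), with -0.52 at day 25 and -1.10 at day 30, and that of KO from WT was 0.48 (SE 0.17, adjusted p = 0.241). The values do not separate the spliced, active XBP1 transcript from the unspliced one. DNAJC6 (auxilin, which strips clathrin from vesicles in neurons) was at 89 and 89 in WT, 180 and 162 in KO and 94 and 80 in OE at day 25, and at 167 and 164, 168 and 226, and 93 and 139 at day 30. The log2 difference of OE from KO was -0.87 (SE 0.19, adjusted p = 0.0344), again without overlap of the 4 and 4 values. Both calls depended on single libraries. Leaving out 1 KO or OE library at a time, the adjusted p of XBP1 ran from 0.0112 to 0.165 and that of DNAJC6 from 0.00606 to 0.156, and for each gene it was 0.05 or more in 5 of the 8 cases: without any one of the 4 OE libraries, or without KO replicate 2 of day 30.

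Among ER genes, the averaged OE and KO comparison gave PDIA3, CALR and DNAJC3 an unadjusted p under 0.05, each lower with OE. The ER class itself was split, with 13 of its 20 genes below zero and 7 above, DNAJB11 highest (0.41). Falls passing that unadjusted cutoff made up 9.86% of members and 10.7% of the whole gene list. PDIA3, a disulphide isomerase that works with calreticulin and calnexin, was at 449 and 546 in WT, 767 and 676 in KO and 454 and 441 in OE at day 25, and at 505 and 484, 516 and 788, and 454 and 434 at day 30. The 4 OE values all lay below the 4 KO values, with a log2 difference of -0.60 (SE 0.15, adjusted p = 0.0507). CALR, calreticulin, was at 1740 and 1740 in WT, 1882 and 2092 in KO and 1880 and 1411 in OE at day 25, and at 1880 and 1740, 2092 and 1882, and 1466 and 1411 at day 30. It was the only member whose 4 KO values all stood above its 4 WT values, beside 2.74% of all genes, but the nearest KO and WT values, 1882 and 1880, are practically the same step. Its log2 difference of OE from KO was -0.37 (SE 0.11, adjusted p = 0.081). DNAJC3, the ER partner of BiP that also restrains eIF2alpha kinases, was at 74 and 71 in KO at day 25 and at 114 and 139 at day 30, where WT had 78 and 70 and OE had 72 and 52, a log2 difference of OE from KO over both days of -0.69 (SE 0.20, adjusted p = 0.0801).

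The 6 members with an ER stress element were XBP1, CALR, HSPA5, PDIA6, HSP90B1 and CANX. HSPA5, the standard readout of ER stress, was at 946 and 806 in WT, 1128 and 699 in KO and 806 and 850 in OE at day 25, and at 875 and 787, 946 and 970, and 806 and 732 at day 30. Its log2 difference of KO from WT was 0.12 (SE 0.15, adjusted p = 0.725) and of OE from KO -0.21 (SE 0.15, adjusted p = 0.425). For OE against KO over both days the log2 differences of all 6 were below zero, at -0.81 for XBP1, -0.37 for CALR, -0.21 for HSPA5, -0.16 for PDIA6, -0.11 for HSP90B1 and -0.03 for CANX. Of these 6, XBP1 alone passed an adjusted p of 0.05. In that comparison 13 of the 20 ER members and 4616 of all 9497 genes lay below zero. The 2 members with the short-form element went the other way. HERPUD1 was at 0.09, and HYOU1 had higher means in OE than in KO on both days (454 against 367 at day 25, 353.5 against 318 at day 30). For KO against WT the signs were mixed, with 0.48 for XBP1, 0.16 for CALR, 0.12 for HSPA5, 0.06 for PDIA6, -0.18 for HSP90B1 and -0.33 for CANX. HYOU1, with 2 short-form elements, was at -0.56 in that comparison. DNAJB9, a target of XBP1, had 46 and 78 in KO at day 25 and 74 and 21 at day 30, beside 55 to 64 in WT. PERK (EIF2AK3) differed by -0.13 (SE 0.34, adjusted p = 0.867) and HERPUD1 by -0.03 (SE 0.41, adjusted p = 0.977), the latter being 0.55 without KO replicate 2 of day 30 and -0.60 without replicate 1. Of the members of the response outside the chosen genes, 35 of 45 in a list of unfolded protein response and ERAD genes were listed. None of the 35 was called between KO and WT over both days, 4 were higher and 2 lower at an unadjusted p under 0.05, beside 15.2% of all genes in both directions, and the median log2 difference was 0.05. ASNS, an ATF4 target that makes asparagine, was the lowest, at 25 and 40 in KO and 48 and 70 in WT at day 25, and at 92 and 20 in KO and 78 and 112 in WT at day 30 (-0.97 over both days, SE 0.40, adjusted p = 0.29). Its value was -0.44 (adjusted p = 0.552) without KO replicate 2 of day 30 and -1.51 (adjusted p = 0.00922) without replicate 1. DERL1, a channel protein of ERAD, was the highest (0.90, SE 0.26, adjusted p = 0.197), with 1.13 (adjusted p = 0.0183) without KO replicate 1 of day 30.

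**Figure D3:**
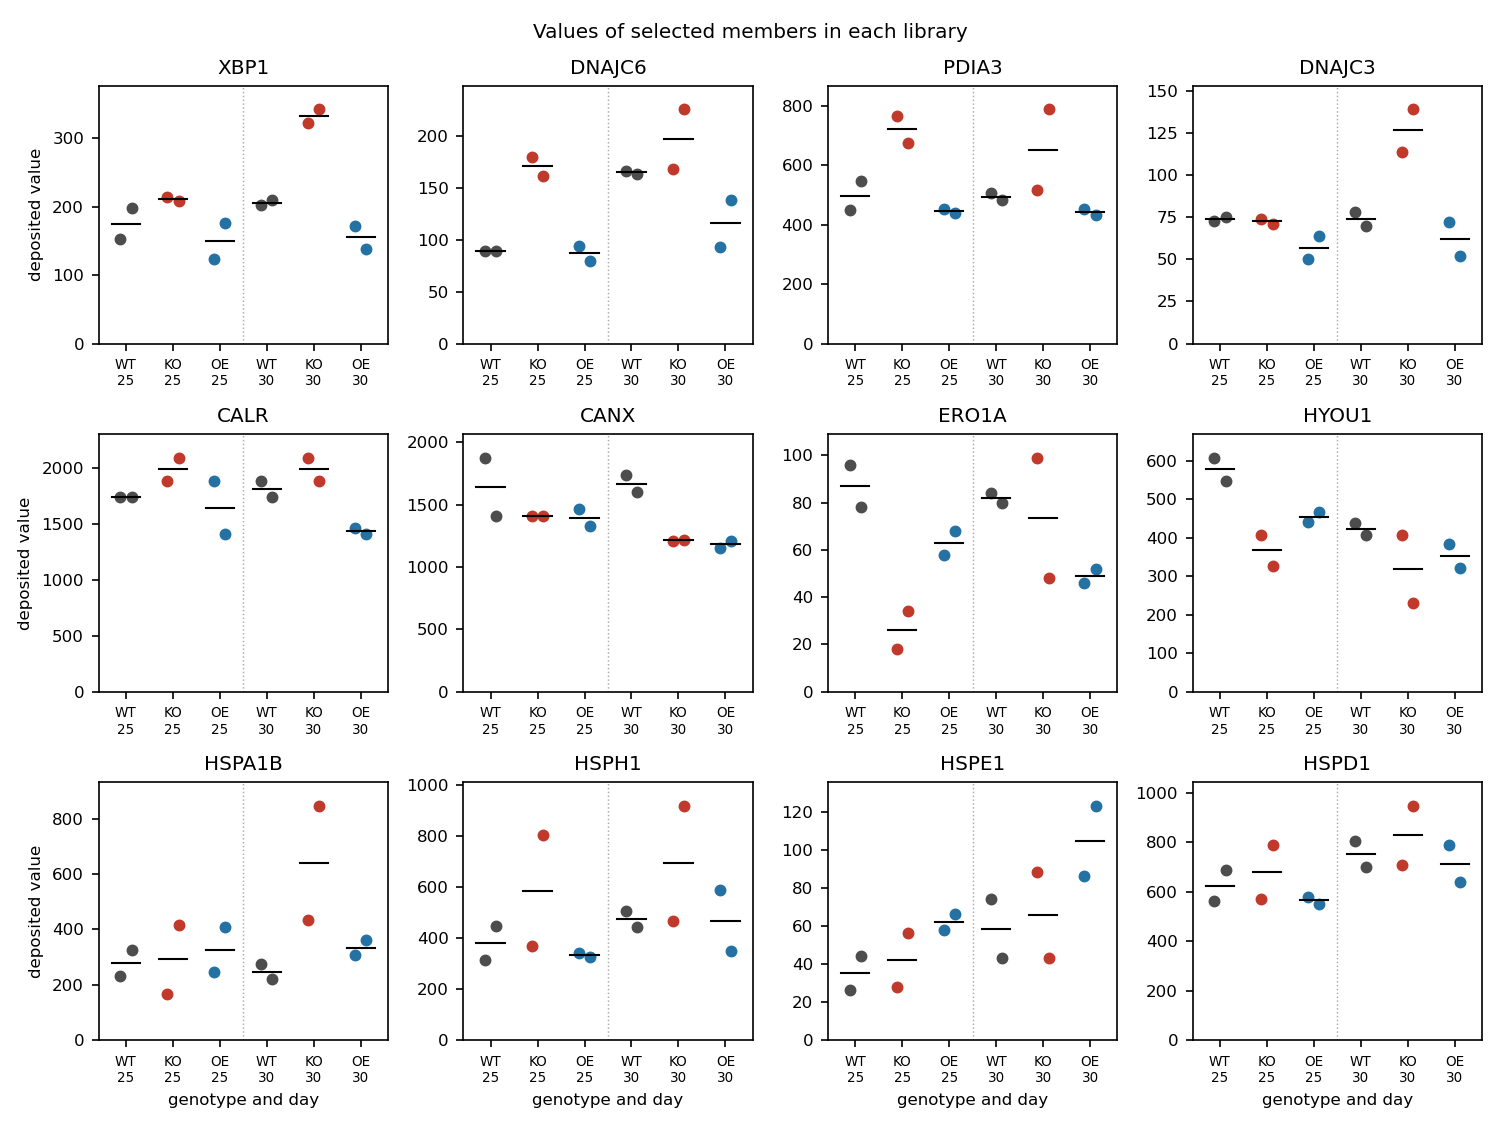
Deposited values (vertical axes, from 0) of 12 members in each library, by genotype and day, with WT in grey, KO in red, OE in blue and the group mean as a black line. XBP1 reaches 322 and 342 in KO at day 30, ERO1A is at 18 and 34 in KO at day 25, and the KO points of HSPA1B and HSPH1 lie far apart.

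By its labels, OE against WT addresses what still differs from unedited ThOs when c-JUN is induced in KO cells. At day 25, 0 of 71 members were called beside 0.0% of all genes, at day 30, 0 of 71 beside 0.0316%, and averaged, 0 of 71 beside 0.158%. At an unadjusted p under 0.05, 1 member passed at day 25 (1.41%, beside 4.18% of all genes) and 2 at day 30 (2.82%, beside 4.07%). Averaged over the days, 6 members (8.45%) had an unadjusted p under 0.05, beside 8.21% of all genes: SEL1L3, HSP90AA1, CANX and P4HB lower, beside 4.69% of all genes, and HSPE1 and HSPA14 higher, beside 3.53%. SEL1L3 had the widest negative difference (-0.95, SE 0.29, adjusted p = 0.36). Its values were 66, 80, 78 and 55 in WT and 39, 26, 48 and 32 in OE. DNAJC9, a J-domain protein that handles histones, stood among the widest positive ones (0.58, SE 0.37, adjusted p = 0.787). It was at 54, 46, 47 and 56 in WT and at 90, 66, 62 and 90 in OE, without overlap. HSPA14, an HSP70 of the ribosome, did not overlap either, at 36, 38, 48 and 46 in WT and 55, 62, 58 and 60 in OE (0.48). These were the only 2 members higher in OE without overlap (2.82%), beside 4.13% of all genes. Small differences of the ER genes mostly pointed one way here. Of the 20 ER members 18 were lower in OE than in WT over both days, 19 of 20 at day 25 and 18 of 20 at day 30. These members were measured in the same libraries and are not replicates. Over both days 0 of the 71 members passed an adjusted p of 0.05, with no fold threshold. The median log2 difference of the ER members was -0.21, beside 0.00 over all genes and 4718 of 9497 genes below zero. Over the 34 cytosolic members the median was 0.11, with 23 above zero, and over the 6 mitochondrial members it was 0.06. With each library left out in turn the ER median stayed between -0.24 and -0.19. The cytosolic median ran from 0.020 to 0.198 and the mitochondrial one from -0.028 to 0.168. WT replicate 1 of day 25 held the lowest of the 12 values in 12 of the 34 cytosolic members, beside 898 of 9497 genes. OE replicate 2 of day 30 held it in 7 of the 20 ER members, beside 585 genes. The disulphide isomerases P4HB and PDIA4 had all 4 OE values below all 4 WT values. P4HB was at 1045, 1082, 1130 and 948 in WT and at 852, 766, 822 and 733 in OE (log2 difference -0.41, SE 0.15, adjusted p = 0.486), and PDIA4 was at 627, 558, 578 and 540 against 516, 504, 516 and 453 (-0.21, SE 0.12, adjusted p = 0.71). In all, 5 members (7.04%) were lower in OE without overlap, beside 4.34% of all genes: ERO1A, SEL1L3, DNAJB14, PDIA4 and P4HB. The summed proliferation markers (9 of 10 listed) ran from 1873 to 2682 in WT and from 2858 to 3193 in OE, without overlap. Both KO libraries of day 25 (1706 and 1471) held less than any WT library. Of the later KO pair, replicate 2 (1645) was also below WT and replicate 1 (2129) was inside the WT range. The part of proliferation in the ER values was not tested. For KO against WT the ER median was -0.14, with 13 of 20 below zero, and for OE against KO it was -0.09, also with 13 of 20 below zero.

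**Figure D4:**
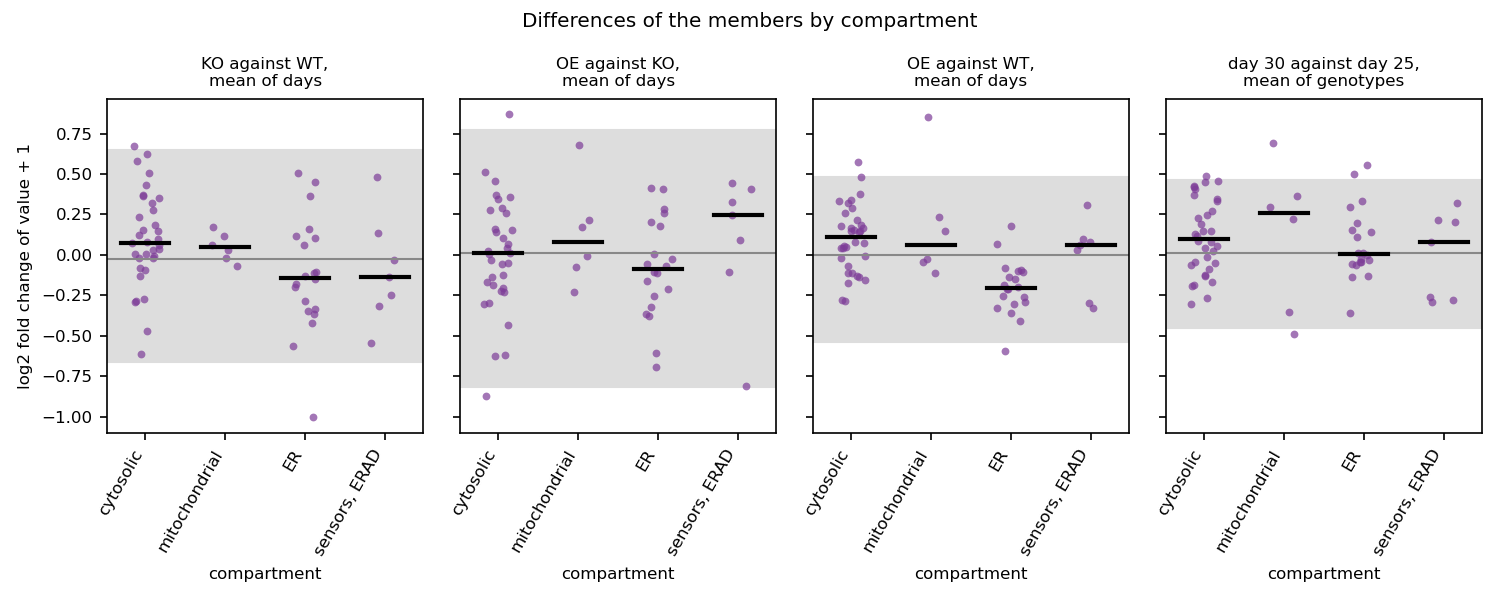
Log2 fold change of value + 1 (vertical axis) of each cytosolic, mitochondrial, ER and sensor or ERAD member (1 point per gene) in 4 comparisons, with the median of each compartment as a black bar, the middle 90% of all 9497 genes as a grey band and their median as a grey line. In OE against WT the ER median lies at -0.21 and the cytosolic median at 0.11, and most points of every panel lie inside the grey band.

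The CCT subunits had small differences between genotypes, and at day 30 most of them were highest in OE. Over both days the 8 subunits differed between KO and WT by -0.13 (CCT6A) to 0.43 (CCT2) on the log2 scale, between OE and KO by -0.21 (TCP1) to 0.34 (CCT6A), and between OE and WT by 0.08 (TCP1) to 0.38 (CCT2), with 8 of 8 above zero in the last. WT replicate 1 of day 25 held the lowest value of the series in 5 of the 8 subunits. At day 30, 7 of 8 (all but TCP1) had both OE values above both WT values, with log2 differences up to 0.50 (CCT2, SE 0.27). Among all 71 members 15 (21.1%) did, beside 21.0% of all genes. On that day 6 of 8 (all but TCP1 and CCT7) also had both OE values above both KO values, with differences up to 0.37 (CCT4, SE 0.23). Among all 71 members 10 (14.1%) did, beside 18.7% of all genes. The subunits were measured in the same libraries, so their counts are not separate evidence. None of the subunits had an unadjusted p under 0.05 in either comparison. The adjusted p of CCT2, the widest, was 0.323 for KO against WT, and its values there were 331 and 444 in WT, 397 and 784 in KO at day 25, and 452 and 422, and 546 and 546 at day 30. The cytosolic HSP90 pair differed little as well: HSP90AB1 by 0.06 (SE 0.11) between KO and WT, and HSP90AA1 by -0.28 (SE 0.10, adjusted p = 0.489) between OE and WT, which is the step from about 3456 to 2674 in 3 of 4 OE libraries. Of 27 HSF factors and cytosolic co-chaperones 19 were listed, with a median log2 difference of KO from WT of 0.01 and 0 called. BAG4, which releases HSP70 clients, was lowest (-0.89, SE 0.30, adjusted p = 0.223), and CDC37, which loads kinases onto HSP90, was highest (0.55, SE 0.18, adjusted p = 0.218). BAG4 was at -1.22 (adjusted p = 0.0122) without KO replicate 1 of day 30 and at -0.56 (adjusted p = 0.396) without replicate 2.

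The mitochondrial pair had unlike values across the groups. HSPD1 and HSPE1, the chamber and its lid, are adjacent genes, read in opposite directions, on chromosome 2, and in the deposited positions HSPE1 (197500140 to 197503449) lies inside HSPD1 (197486584 to 197516737), so reads of the overlap are uncertain. HSPD1 was at 562 and 688 in WT, 570 and 790 in KO and 578 and 552 in OE at day 25, and at 806 and 700, 709 and 948, and 788 and 639 at day 30. HSPE1 was at 26 and 44, 28 and 56, and 58 and 66 at day 25, and at 74 and 43, 88 and 43, and 86 and 123 at day 30. HSPE1 was thus highest in OE on average, by 0.85 over WT (SE 0.33, adjusted p = 0.503) and by 0.68 over KO (SE 0.33, adjusted p = 0.252), where HSPD1 differed by -0.11 (SE 0.15, adjusted p = 0.942) and -0.23 (SE 0.15, adjusted p = 0.406). Of 13 genes for other mitochondrial folding factors and proteases 12 were listed, with 0 called and a median log2 difference of KO from WT of -0.01.

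Between day 25 and day 30, over the 3 genotypes, 0 of 71 members were called beside 0.0% of all genes. At an unadjusted p under 0.05, 10 were higher at day 30 (14.1%, beside 5.76% of all genes) and 1, HYOU1, was lower (1.41%, beside 5.54%). The higher ones included 3 of the 6 mitochondrial members, HSPE1 (0.69 on the log2 scale, SE 0.27, adjusted p = 0.391), HSPA9 (0.37, SE 0.14, adjusted p = 0.391) and HSPD1 (0.30, SE 0.12, adjusted p = 0.419), as well as DNAJB11 (0.56, SE 0.23, adjusted p = 0.403), HSPA13 (0.50, SE 0.15, adjusted p = 0.283) and DNAJC6 (0.49, SE 0.15, adjusted p = 0.306). These averages hid unlike genotypes. The mean of DNAJB11 went from 23 to 64 in KO, from 46.5 to 55 in OE and from 51 to 48 in WT. HSPA13 went from 240 to 433 in KO, from 321 to 417 in OE and from 387.5 to 452 in WT. XBP1, also among the 10, went from 211 to 332, from 149.5 to 155 and from 175 to 206. DNAJC6 rose most in WT, from 89 to 165.5, beside 171 to 197 in KO and 87 to 116 in OE. HSPA9, mortalin, was between 298 and 509 in the 6 libraries of day 25 and between 449 and 558 in those of day 30, so the days overlapped. DNAJC8, a splicing-linked J-domain protein, was the only member whose days did not overlap (1.41%), beside 0.769% of all genes in either direction. It had 198 to 250 at day 25 and 284 to 312 at day 30 (0.34, SE 0.11, adjusted p = 0.328). Of all genes 0.295% were higher at day 30 without overlap. The median over the 71 members was 0.08, with 42 above zero, and over all genes 0.01. Without KO replicate 2 of both days 1 member, HSPE1, was called (1.02, adjusted p = 0.0437), beside 0.79% of all genes in that fit. The widest negative differences were those of DNAJC30, a mitochondrial J-domain protein (-0.49, SE 0.34, adjusted p = 0.614), HERPUD2-AS1, an antisense RNA (-0.39, SE 0.23, adjusted p = 0.559), and HYOU1 (-0.36). DNAJC30 lay between 12 and 46 at day 25 and between 12 and 31 at day 30. HERPUD2-AS1 lay between 26 and 54, then between 22 and 45. Whether reads were counted by strand is not given in the sources used here, so HERPUD2-AS1 is uncertain.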

How the data were processed

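Per the labels, RNA of 3 pooled ThOs per library was made into total RNA libraries, and the submitters' processing notes name bcl2fastq, Bowtie2 and RSEM without saying what each was used for; the aligner settings, annotation and counting are not given in the sources used here. The notes name hg19, but the positions of all 71 members overlapped RefSeq GRCh38.p14. The authors deposited 1 table per library with 1 whole-number value per gene, taken here as a normalized score: the 12 libraries share their minimum, median and maximum, their sums lie between 1788282 and 1798596, and each holds only 687 to 690 distinct values, as quantile normalization would leave. The tables hold no value below 11, no count could be recovered, and the precision rests on the 2 libraries per group.

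Differences were estimated on log2(value + 1) by limma 3.58.1, run in R 4.3.3 (empirical Bayes with trend, 5.29 prior and 6 residual degrees of freedom), in one fit of 6 group means, with two-sided p-values adjusted by Benjamini-Hochberg over 9497 genes. The filter (value of at least 1 in 2 libraries) removed 0 genes. Fold changes on this scale understate those of low genes. The steps were tested on simulated data. Members, classes, pathway lists and tests were chosen with earlier results of these data known. Named with values were a standing list of well-known members and the 3 largest rises and falls over days in each averaged comparison; PDIA3, DNAJA1, DNAJA2, DNAJB2, DNAJB6, DNAJC8, DNAJC27, EIF2AK2, EIF2AK4, DNAJB14, PDIA6 and the marker genes were added after their values were seen. Marker sums add the listed genes' values in a library. Of the lists not quoted beside a result, 6 of 9 neural progenitor, 12 of 13 choroid plexus and roof plate, 3 of 8 mesenchyme, 3 of 8 p53 and apoptosis and 0 of 5 pluripotency markers were listed. The 9 ATAC-seq and 2 CUT&Tag samples were not analysed here. Motifs were searched as exact letters with Python 3.11.15.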

Additional observations from a re-analysis of the deposited data

How the results depend on the processing

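The depth behind the values is unknown, and their precision rests on 2 libraries per group. The count of called members was 0 in all 11 comparisons with another pseudocount (0.1 or 5), without the filter, with genes under a mean of 50 removed, after quantile normalization or median centring, and with only the libraries compared or library weights. Replicate numbers did not pair the samples: the differences of replicate 2 from replicate 1 correlated between groups by -0.21 to 0.26 (15 pairs of groups). With the replicate number as a block the counts were again 0, and the adjusted p of OE against KO over both days was 0.0478 for XBP1 and 0.0508 for DNAJC6. With only the libraries compared they were 0.106 and 0.121, and with library weights 0.122 and 0.103. Each library left out singly gave 0 to 6 called members for KO against WT at day 30, 0 to 2 over both days, 0 to 1 for OE against KO at day 25, 0 to 10 at day 30, 0 to 1 over both days, and 0 to 2 for the change of the KO effect between days. The share of all genes called was 11.4%, 5.66%, 3.05% to 3.59%, 15.2%, 10.2% and 1.99% in the fits with the highest counts. The highest of these came without KO replicate 1 of day 30, and for OE against KO at day 25 also without KO replicate 1 of day 25 or KO replicate 2 of day 30. Without KO replicate 2 of both days (chosen after the data were seen), 4 members were called for KO against WT at day 25 (4.44% of all genes), 6 for OE against KO at day 25 (7.51%) and 1 between the days (0.79%). Without the fold threshold 2 were called for OE against KO over both days. At an unadjusted p under 0.05 with 2-fold, KO against WT had 3 (day 25), 2 (day 30) and 1 (averaged) called members, beside 5.31%, 2.94% and 2.08% of all genes, with 3 and 3 for OE against KO at day 25 and 30 (8.57% and 5.38%), 1 for OE against WT at day 25 (1.57%) and 3 for the change between days (3.99%). The ER median ran from -0.21 to -0.064 for KO against WT and from -0.17 to -0.052 for OE against KO with a library left out, and the mitochondrial median for OE against KO from -0.25 to 0.34. HERPUD1 changed sign without KO replicate 2 of both days (0.62 for KO against WT and -0.78 for OE against KO at day 30) and without KO replicate 2 of day 30 (0.55 for KO against WT over both days, and -0.60 without replicate 1). The cause of these changes was not tested. Of 7306 other fits of named members, 414 changed sign without passing in either fit.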
